A study of Mus musculus with 36 samples.

Results

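Ide, Fgfbp3 and Btaf1 are 3 neighbouring genes on mouse chromosome 19, taken by symbol from a table of 24265 genes measured by bulk RNA sequencing of the hypothalamus. They were chosen by their levels in C57BL/6J mice, which were already known, so their levels and their diet difference in that strain are given as descriptions without a test. Poly(A) RNA of wild-type mice of 3 inbred strains was sequenced in 36 libraries, 12 from C57BL/6J, 12 from NZO/HlLtJ and 12 from CAST/EiJ. Within each strain, 6 libraries came from mice on a diet named high fat, high sugar (HFHS), given as 44% fat with fiber, and 6 from mice on a control diet given as 10% fat with fiber, with 3 females and 3 males per diet. Mice were 6 weeks old when the diets began and 15 weeks old at collection. No mouse received another treatment. The labels give each library a number of its own but do not say that libraries are separate animals, so an error here is the spread between libraries.

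Ide encodes the insulin-degrading enzyme, a zinc metallopeptidase that cleaves insulin, amylin, glucagon and amyloid beta. Fgfbp3 encodes a secreted protein that binds fibroblast growth factors and carries them away from the extracellular matrix. Btaf1 encodes an ATPase of the SNF2 family that removes the TATA-binding protein from DNA. A stretch of chromosome 19 with Ide and Fgfbp3 is known to be present in a varying number of copies among C57BL/6J mice. DNA was not measured here, and the number of copies in these mice was not tested.

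On build GRCm38, Fgfbp3 (ENSMUSG00000047632) lies at chr19:36917550-36919615 on the minus strand and has 2 exons in GENCODE M21. Btaf1 (ENSMUSG00000040565) lies 6463 bases further on, at chr19:36926079-37012752 on the plus strand, and has 38 exons. Ide (ENSMUSG00000056999) lies at chr19:37268743-37337852 on the minus strand, and its protein-coding transcript has 24 exons. A gap of 255.99 kb separates Btaf1 from Ide, and the 3 genes together span 420.303 kb. The 250 bases before each RefSeq start site (GRCm38.p6) are printed 5′ to 3′ because Ide and Btaf1 had the same 5 lowest libraries in C57BL/6J. Capitals mark matches on either strand to the box CCAAT, the GC box GGGCGG, the TATA box letters TATAAA, the cyclic AMP element TGACGTCA, or the E-box CACGTG.
Ide, minus strand, chr19:37334545-37334794: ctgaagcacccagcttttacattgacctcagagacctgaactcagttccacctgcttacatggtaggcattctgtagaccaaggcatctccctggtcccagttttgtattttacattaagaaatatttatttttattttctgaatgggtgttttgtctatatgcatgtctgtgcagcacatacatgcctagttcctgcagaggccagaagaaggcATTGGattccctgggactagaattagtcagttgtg
Btaf1, plus strand, chr19:36925829-36926078: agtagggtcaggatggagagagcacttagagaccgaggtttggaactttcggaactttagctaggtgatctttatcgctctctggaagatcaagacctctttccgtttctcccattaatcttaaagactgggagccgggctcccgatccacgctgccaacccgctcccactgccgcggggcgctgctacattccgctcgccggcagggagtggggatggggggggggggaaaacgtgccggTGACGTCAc
Fgfbp3, minus strand, chr19:36919600-36919849: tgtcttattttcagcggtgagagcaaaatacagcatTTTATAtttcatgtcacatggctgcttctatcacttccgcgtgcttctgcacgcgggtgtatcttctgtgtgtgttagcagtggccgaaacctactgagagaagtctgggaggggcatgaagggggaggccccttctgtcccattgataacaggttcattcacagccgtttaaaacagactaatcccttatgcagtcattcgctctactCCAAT
The Ide window held 1 CCAAT match on the reverse strand, and the Fgfbp3 window held CCAAT on the forward strand and TATAAA on the reverse strand. The Btaf1 window held TGACGTCA 9 bases before the start site. Of 32817 such windows, 33.8% held CCAAT, 32.7% GGGCGG, 12.4% TATAAA, 1.55% TGACGTCA and 6.02% CACGTG, with no overlap between matches in the 3 printed windows. The Btaf1 window had 17 CpG dinucleotides, the Fgfbp3 window 8 and the Ide window 0, against a median of 6 over all windows. RefSeq starts Ide at 37334544, whereas its protein-coding transcript in GENCODE M21 starts at 37330613, so the Ide window does not border that transcript. The window also lies inside the Ide span given above, which starts at 37337852 on the minus strand. Its 0 CpG thus do not describe the bases before that start. The GENCODE M21 transcript of Fgfbp3 starts at 36919615, inside the printed window, which reaches down to 36919600. Its CCAAT match thus lies within that transcript.

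Library totals were 23885206 to 47250454 estimated counts. All 16 genes of hypothalamic peptide neurons that were looked up were detected (Kiss1 was at 0 in some libraries), with a summed level of 651 to 2223 CPM (counts scaled to a common library size) over the 36 libraries. The highest sum was that of CAST/EiJ control female 1, and the median was 1000 CPM. All 3 members passed the filter on low counts, as did 20053 genes in all. In bulk tissue, fewer cells of a type and less RNA per cell cannot be told apart.

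Ide stood at a pair of separate levels within C57BL/6J. Among HFHS females it was at 59.9, 53.3 and 55.6 CPM, against 108, 117 and 113 CPM in control females. Among HFHS males it was at 117, 109 and 59.4 CPM, against 108, 54.9 and 110 CPM in control males. Of the 12 libraries, 5 thus lay between 53.3 and 59.9 CPM and 7 between 108 and 117 CPM, with none between 59.9 and 108 CPM. Relative to the mean of the 24 NZO/HlLtJ and CAST/EiJ libraries (56.2 ± 3.67 CPM, SD, n = 24), the lower 5 were at 0.949 to 1.07 and the upper 7 at 1.92 to 2.08. Counting error was small beside the gap, with exact Poisson 95% intervals of 57.1 to 62.9 CPM for the highest of the lower libraries and 105 to 112 CPM for the lowest of the upper ones; such intervals cover counting error alone.

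**Figure D1:**
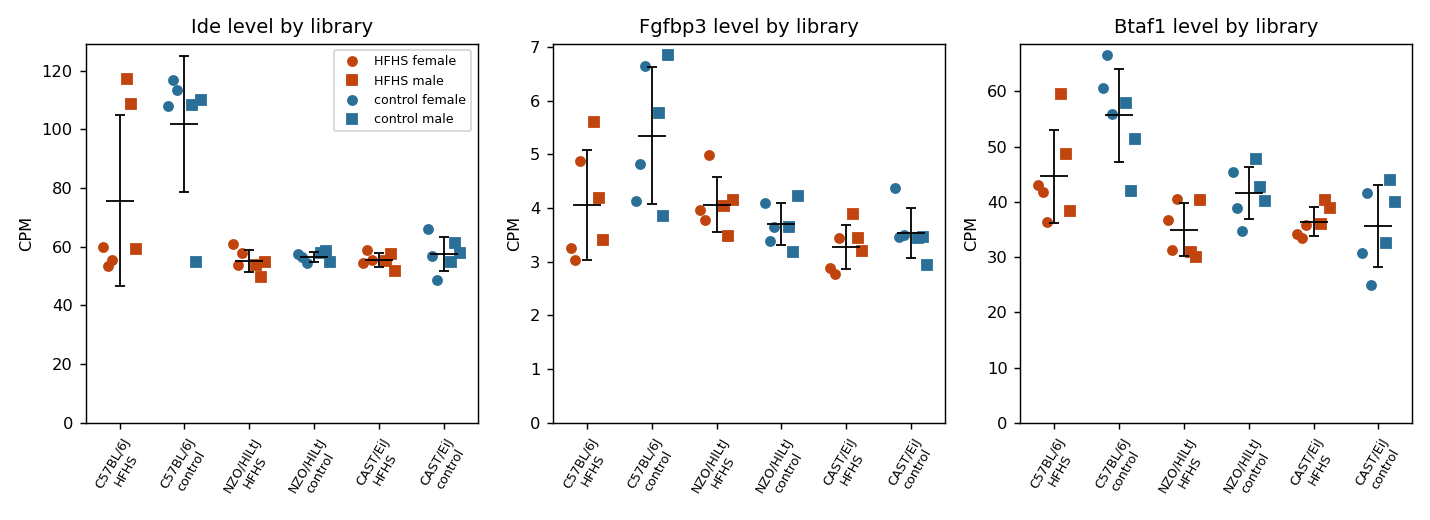
Levels of Ide, Fgfbp3 and Btaf1 in CPM (y axis, from 0) in each of the 36 libraries, by strain and diet (x axis), with circles for females, squares for males, and bars for the mean ± SD of 6 libraries. In C57BL/6J, 4 of 6 HFHS libraries and 1 of 6 control libraries sit near the 56.2 CPM mean of the other strains for Ide, and the rest sit at 108 CPM or above.

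A step was counted where the gap between neighbouring libraries, sorted by log2 CPM, was over 2 times the SD of that gene within the 8 NZO/HlLtJ and CAST/EiJ groups. Ide had 1 step in C57BL/6J, 0 in NZO/HlLtJ and 0 in CAST/EiJ. Its gap was 0.85 on the log2 scale, a ratio of 1.80 between the libraries on either side, and took up 8.47 SD. At least 1 step was found for 5.12% of all genes in C57BL/6J, 2.64% in NZO/HlLtJ and 24.3% in CAST/EiJ. A gap in C57BL/6J at least as wide as that of Ide in SD units was found for 11 of 20053 genes, or 0.0549%, Ide included. The other 10 did not divide the libraries as Ide did, and 4 of them are X or Y chromosome genes that differ between the sexes.

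In NZO/HlLtJ and CAST/EiJ, Ide was close to even. Its lowest, median and highest levels were 49.5, 54.3 and 60.8 CPM in NZO/HlLtJ on HFHS, against 54.3, 56.99 and 58.6 CPM on control diet. In CAST/EiJ they were 51.8, 55.3 and 58.8 CPM on HFHS, against 48.7, 57.3 and 65.9 CPM on control diet. The lower 5 C57BL/6J libraries lay within this range and the upper 7 lay above all 24 libraries. The SD of log2 CPM within groups was 0.40 in C57BL/6J, against 0.067 in NZO/HlLtJ and 0.13 in CAST/EiJ. The ratio of the C57BL/6J SD to the SD in the other strains was 3.94, the 16th largest of 20053 genes, where the median gene had a ratio of 0.955.

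Btaf1 divided the same libraries, without a step. Its levels in C57BL/6J were 43.1, 41.8 and 36.3 CPM in HFHS females, against 60.6, 66.5 and 55.9 CPM in control females. In males they were 59.5, 48.6 and 38.4 CPM on HFHS, against 57.9, 42.0 and 51.4 CPM on control diet. The 5 libraries low for Ide were the 5 lowest for Btaf1, at 36.3 to 43.1 CPM, and the other 7 were at 48.6 to 66.5 CPM. Of all genes, 112 (0.559%) had the same 5 libraries lowest with no overlap. The widest gap of Btaf1 was 0.17 on the log2 scale, or 0.845 SD, and 53.5% of genes had one at least as wide. Btaf1 also varied outside C57BL/6J, with a within-group SD of 0.22 in C57BL/6J, against 0.19 in NZO/HlLtJ and 0.22 in CAST/EiJ.

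Fgfbp3, with the fewest counts of the 3, was more spread in C57BL/6J but overlapped. It was at 3.25, 3.03 and 4.87 CPM in HFHS females, against 4.13, 4.81 and 6.64 CPM in control females. In males it was at 5.61, 4.19 and 3.41 CPM on HFHS, against 5.77, 3.85 and 6.85 CPM on control diet. The libraries low for Ide held 3.03 to 4.87 CPM of Fgfbp3 and the others 4.13 to 6.85 CPM, and HFHS female 3 lay above 3 libraries that were high for Ide. Each C57BL/6J library gave 84 to 273 counts of Fgfbp3, so its interval in HFHS female 3 ran from 4.08 to 5.76 CPM and in control female 1 from 3.48 to 4.86 CPM. No gap passed the step rule, the widest being 1.22 SD, which 24.9% of genes matched or exceeded. The within-group SD was 0.37 in C57BL/6J and 0.17 in the other strains, a ratio of 2.25 that ranked 215th.

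Ide levels overlapped between the diets in C57BL/6J males and over both sexes together. In females the 3 libraries of each diet did not overlap, but the share of all genes split in this way was not counted. Of the HFHS libraries, 4 of 6 lay below the Ide gap, 3 of 3 females and 1 of 3 males. On control diet 1 of 6 lay below it, 0 of 3 females and 1 of 3 males. The diet difference of Ide in C57BL/6J, HFHS minus control, was −0.47 ± 0.12 on the log2 scale (edgeR estimate ± SE, n = 6 and 6). Those of Fgfbp3 and Btaf1 were −0.40 ± 0.15 and −0.32 ± 0.11. Each SE rests on 1 spread per gene shared by the groups of all strains. The within-group SD of Ide was 0.40 in C57BL/6J, against 0.067 in NZO/HlLtJ and 0.13 in CAST/EiJ, so its SE is too small for C57BL/6J. The group means of Ide, 75.7 ± 29.1 CPM on HFHS and 102 ± 23.2 CPM on control diet (SD, n = 6 each), both fell inside the gap, where no library lay. No gene of 20053 (0%) was called for diet in C57BL/6J by edgeR. Before adjustment, 687 of 20053 had an edgeR p under 0.05, a share of genes that is itself below 0.05. DESeq2 called 3 genes and limma called 0. Without HFHS male 3 the Ide difference was −0.35 ± 0.10, and without control male 2 it was −0.60 ± 0.10.

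In the order of the numbers that the labels give the libraries, the first 4 of C57BL/6J (control females 1 to 3 and control male 1) were high for Ide. The next 3 (control male 2, HFHS females 1 and 2) were low, the next 3 (control male 3, HFHS males 1 and 2) were high, and the last pair (HFHS female 3 and HFHS male 3) were low. What the numbers stand for is not given. The summed level of 6 blood markers was 305 to 794 CPM (median 386) on HFHS in C57BL/6J, against 299 to 1076 CPM (median 782) on control diet. The 5 libraries low for Ide held 342 to 1076 CPM of these markers and the other 7 held 299 to 915 CPM, so both ranges overlapped widely. For 10 immediate early genes the corresponding sums were 110 to 538 CPM and 107 to 593 CPM. The part of these genes in the diet difference was not tested.

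**Figure D2:**
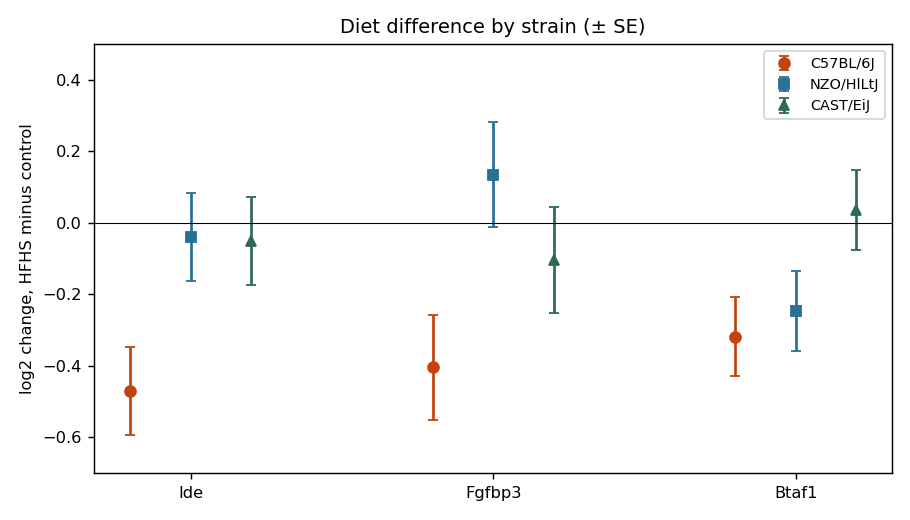
Diet difference of Ide, Fgfbp3 and Btaf1 (x axis) as log2 change, HFHS minus control (y axis), by strain, with points for the edgeR estimate and bars for ± SE. The C57BL/6J estimates run from −0.47 to −0.32. In NZO/HlLtJ and CAST/EiJ they are −0.04 and −0.05 for Ide, 0.13 and −0.10 for Fgfbp3, and −0.25 and 0.04 for Btaf1. The SE uses 1 spread per gene shared by all strains.

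None of the 3 genes was called for diet in the other strains, where 0.145% of genes were called in NZO/HlLtJ and 0.12% in CAST/EiJ. In NZO/HlLtJ the diet differences were −0.04 ± 0.12 for Ide (edgeR adjusted p = 0.964), 0.13 ± 0.15 for Fgfbp3 (adjusted p = 0.844) and −0.25 ± 0.11 for Btaf1 (adjusted p = 0.431). In CAST/EiJ they were −0.05 ± 0.12 for Ide (edgeR adjusted p = 0.872), −0.10 ± 0.15 for Fgfbp3 (adjusted p = 0.759) and 0.04 ± 0.11 for Btaf1 (adjusted p = 0.906). The 95% interval for Ide ran from −0.28 to 0.20 in NZO/HlLtJ and from −0.29 to 0.19 in CAST/EiJ. Both intervals, and the tests of Ide, used the spread shared with C57BL/6J, where Ide was most spread. They are thus wide for NZO/HlLtJ and CAST/EiJ and not independent of the C57BL/6J levels. The diet difference in NZO/HlLtJ less that in CAST/EiJ was 0.01 ± 0.17 for Ide (edgeR adjusted p = 0.989), 0.24 ± 0.21 for Fgfbp3 (adjusted p = 0.557) and −0.28 ± 0.16 for Btaf1 (adjusted p = 0.328). In that comparison 1.8% of genes were called. Whether the C57BL/6J difference departs from these was not tested, since C57BL/6J levels chose the genes.

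Between strains, C57BL/6J exceeded NZO/HlLtJ on control diet by 0.84 ± 0.12 for Ide, 0.53 ± 0.15 for Fgfbp3 and 0.42 ± 0.11 for Btaf1 on the log2 scale. On HFHS these differences were 0.41 ± 0.12 for Ide, −0.0039 ± 0.15 for Fgfbp3 and 0.35 ± 0.11 for Btaf1. Against CAST/EiJ they were 0.82, 0.61 and 0.64 on control diet and 0.40, 0.31 and 0.29 on HFHS, in the order Ide, Fgfbp3, Btaf1. Over all genes, 17.7% and 15.8% were called against NZO/HlLtJ on control diet and on HFHS, and 42.6% and 42.5% against CAST/EiJ. The C57BL/6J means pool libraries at unlike Ide levels, and both comparisons share them. NZO/HlLtJ and CAST/EiJ did not differ past the threshold on control diet for Ide (−0.02 ± 0.12, edgeR adjusted p = 0.892), Fgfbp3 (0.07 ± 0.15, adjusted p = 0.722) or Btaf1 (0.22 ± 0.11, adjusted p = 0.105), while 42.9% of genes did. Without CAST/EiJ control female 2, Btaf1 was called there (0.35 ± 0.11, edgeR adjusted p = 0.00863). Female minus male differences in C57BL/6J, where 0.194% of genes were called, were −0.23 ± 0.12 for Ide, −0.18 ± 0.15 for Fgfbp3 and −0.00083 ± 0.11 for Btaf1. They passed for none of the 3 in NZO/HlLtJ or CAST/EiJ, where 0.0698% and 0.185% of genes were called. Btaf1 in CAST/EiJ was at −0.21 ± 0.11 (edgeR adjusted p = 0.31), and at −0.33 ± 0.11 (adjusted p = 0.036) without CAST/EiJ control female 2.

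Genes between Btaf1 and Ide did not follow Ide. Cpeb3, an RNA-binding regulator of translation, was at 104 to 130 CPM in the 5 libraries low for Ide and at 98.1 to 122 CPM in the other 7. March5, which encodes a mitochondrial ubiquitin ligase, was at 36.3 to 41.1 CPM in the 5 low for Ide and at 37.9 to 44.1 CPM in the other 7. Neither set stood apart for these genes, and the antisense gene A330032B11Rik, which overlaps Cpeb3, averaged 0.469 CPM in C57BL/6J. Kif11, the mitotic kinesin gene next to Ide on its other side, was at 2.08 to 3.001 CPM in C57BL/6J. Tnks2, a tankyrase gene next to Fgfbp3, was at 151 to 186 CPM there. Rpl10-ps6, a ribosomal protein pseudogene inside Ide that overlaps 0 of its exons, averaged 0.373 CPM in C57BL/6J.

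Within 1 Mb of the 3 genes lay 26 others, of which 21 were tested. The ratio of the C57BL/6J SD to that of the other strains ran from 0.536 to 2.52 over these, against 3.94 for Ide. Rbp4, a retinol carrier gene, was the 1 gene over 2, at 2.18 to 5.95 CPM in C57BL/6J, and its levels did not track Ide (Pearson r = −0.07 over 12 libraries). Of the 21, Hectd2 had the r with Ide that was largest in size, at −0.70. Its levels in C57BL/6J, 13.2 to 21.6 CPM, ran opposite to Ide but overlapped between the libraries low and high for Ide. None of the 21 was called for diet in any strain by edgeR. On control diet 3 were higher and 2 lower in C57BL/6J than in NZO/HlLtJ, where 17.7% of genes were called. Against CAST/EiJ 4 were higher and 4 lower in C57BL/6J, where 42.6% were called. Fra10ac1 was higher in C57BL/6J than in NZO/HlLtJ (0.44 ± 0.08, edgeR adjusted p = 7.94e-05), and Exoc6, an exocyst gene, by 0.21 ± 0.05 (adjusted p = 0.0021). Against CAST/EiJ, Fra10ac1 was lower (−0.25 ± 0.08, edgeR adjusted p = 0.00784) and Exoc6 higher (0.18 ± 0.05, adjusted p = 0.00404). On HFHS, Exoc6 was lower in C57BL/6J than in CAST/EiJ (−0.16 ± 0.05, edgeR adjusted p = 0.00807).

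**Figure D3:**
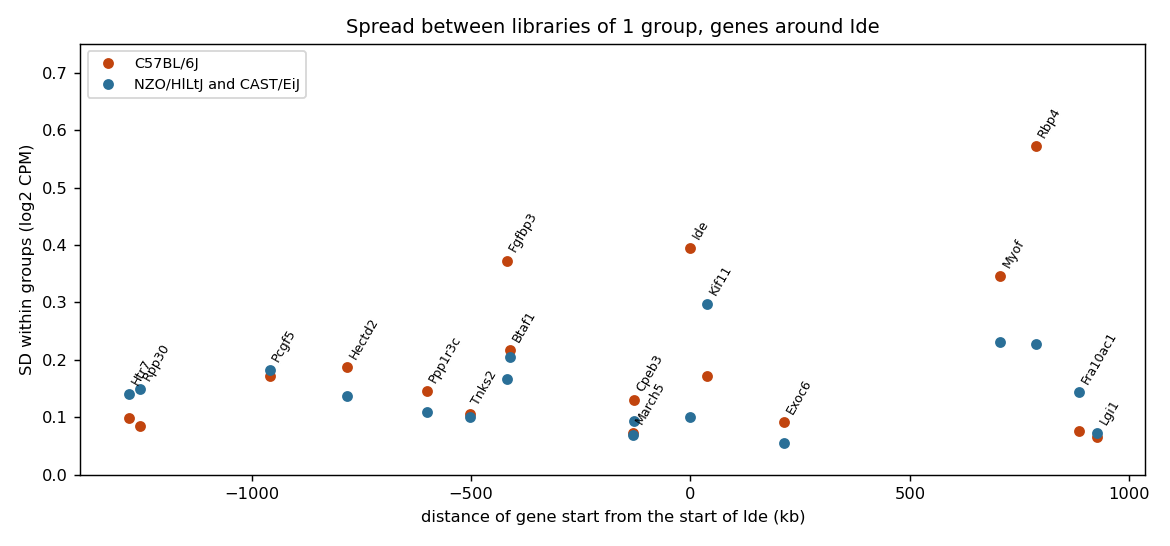
SD of log2 CPM within groups (y axis) for tested genes of at least 1 CPM in C57BL/6J, by the distance of their start from the start of Ide in kb (x axis), with 1 point for C57BL/6J and 1 for NZO/HlLtJ and CAST/EiJ together. Ide and Fgfbp3 are more spread in C57BL/6J (0.40 and 0.37) than in the other strains (0.10 and 0.17), while Cpeb3 and March5 between them stay at or below 0.13.

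Over the 12 C57BL/6J libraries, Btaf1 had the second highest likeness to Ide of 15453 genes of at least 1 CPM, with a Pearson r of 0.905, and Fgfbp3 ranked 175th with 0.723. The libraries lie at a pair of Ide levels, so r is given as a description with no p. Within groups of the other strains (24 libraries) r was 0.521 for Btaf1 and 0.335 for Fgfbp3. In the same libraries the 26 other genes within 1 Mb had r with Ide from −0.53 (Lgi1) to 0.67 (Tnks2), so neither value stood apart. The highest r was that of Eif3l, a translation initiation factor subunit gene (0.919), which stayed between 49.8 and 57.1 CPM. Fam21, Snx19, Pcdhga3, Man2b1, Aars, G6pdx, Cdc42bpb and Immt made up the rest of the first 10, with r from 0.891 down to 0.851. Of the first 10 by Pearson r, 2 were also among the first 10 by Spearman's rho, and Btaf1 was not 1 of them. Its rho was 0.783, below those of Man2b1 (0.867) and G6pdx (0.846), and that of Fgfbp3 was 0.692.

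Zfp950, a zinc finger gene at chr19:61053840-61140840, mirrored Ide, with the lowest r of all (−0.978). In the 5 libraries low for Ide it was at 70.5 to 86.4 CPM, and in the 7 high for Ide at 9.27 to 15.6 CPM. Its gap of 2.17 on the log2 scale, 8.36 SD, was the next widest in SD units after that of Ide. It averaged 58.6 ± 34.7 CPM on HFHS and 22.2 ± 23.7 CPM on control diet in C57BL/6J (SD, n = 6 each). In NZO/HlLtJ it ran from 51.4 to 86.0 CPM and in CAST/EiJ from 23.1 to 53.8 CPM, so the upper 7 Ide libraries were below all 24 of these. Zinc finger genes of this kind have close copies, and how reads were shared among them is not given. The estimated counts of Zfp950 were whole numbers in every C57BL/6J library, from 271 in control female 3 to 3498 in HFHS female 2. Of all estimated counts, 26.5% were not whole. The part of shared reads in the Zfp950 levels was not tested. Of all genes, 31 (0.155%) had the 5 libraries low for Ide as their highest. Msantd2 (−0.903), Gm42974 (−0.814), Sirt4 (−0.814) and Gca (−0.805) had the next lowest r.

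**Figure D4:**
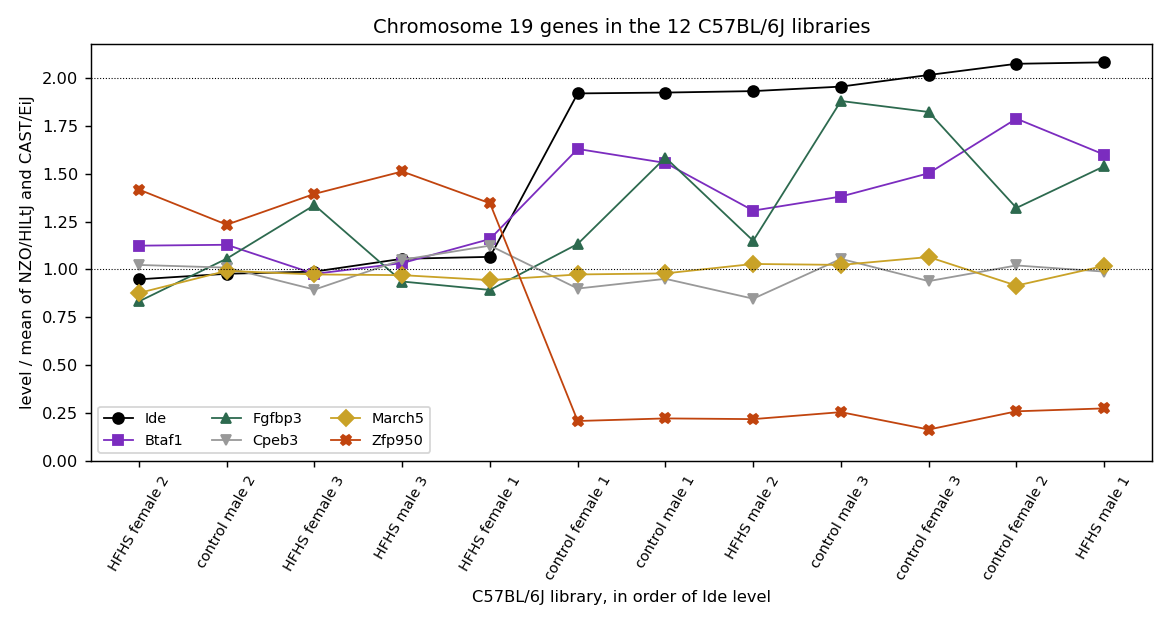
Level of 6 chromosome 19 genes in each C57BL/6J library divided by their mean in the other strains (y axis), with libraries in order of Ide (x axis) and dotted lines at ratios of 1 and 2. The lower 5 libraries for Ide are at or below 1.07 and the upper 7 at or above 1.92, Zfp950 is at or below 0.273 in those 7, and Cpeb3 and March5 stay between 0.847 and 1.12.

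Genes tied to the known roles of the 3 were also examined, from 5 lists. None of their 79 tested genes was called for diet in any strain. The 19 peptide-degrading enzymes had a median diet difference in C57BL/6J of −0.031 and the 18 insulin signalling genes −0.0018, against 0.0021 over all genes. The strain comparisons that follow are on control diet. Between C57BL/6J and NZO/HlLtJ, 3 of the 19 enzymes were higher and 1 was lower, where 17.7% of all genes were called, a share near that of the list. Nln, the neurolysin gene, was higher by 0.34 ± 0.06 (edgeR adjusted p = 7.23e-05), and Ace, the angiotensin-converting enzyme gene, by 0.37 ± 0.07. Pitrm1, a mitochondrial relative of Ide, was at −0.17 ± 0.06 (edgeR adjusted p = 0.0321), and was called in 7 of 12 fits that each left out 1 library. Those that lost the call were without C57BL/6J control female 2 or male 2, or without NZO/HlLtJ control female 1, female 2 or male 2 (edgeR adjusted p up to 0.0724). Against CAST/EiJ, where 42.6% of all genes were called, 4 of the 19 enzymes were higher and 4 lower. Pitrm1 was lower there, at −0.35 ± 0.06, and Mme, the neprilysin gene, was higher by 0.51 ± 0.11 (edgeR adjusted p = 0.000563).

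Of the 18 insulin signalling genes, 2 were higher and 1 lower in C57BL/6J than in NZO/HlLtJ, near the 17.7% called over all genes. Foxo1, a transcription factor gene that insulin signalling restrains, was higher by 0.27 ± 0.07 (edgeR adjusted p = 0.0034), and Igfbp5, an IGF-binding protein gene, was lower, at −0.35 ± 0.09. Against CAST/EiJ 3 of the 18 were higher and 7 lower, with 42.6% called over all genes, and the insulin receptor gene Insr was higher by 0.30 ± 0.06 (edgeR adjusted p = 0.000229). Of 9 tested genes for other Ide substrates and their receptors, 1 was called in each comparison, against 17.7% and 42.6% over all genes. App, the amyloid precursor gene, was higher than in CAST/EiJ by 0.16 ± 0.03. Nppa, an atrial natriuretic peptide gene, was at −1.17 ± 0.41 against NZO/HlLtJ (edgeR adjusted p = 0.0452), but of 12 fits that each left out 1 library it was called in 2, those without C57BL/6J control female 3 or male 2.

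Of 18 FGF genes, 1 was higher and 2 lower than in NZO/HlLtJ (17.7% called over all genes), and 3 were higher and 5 lower than in CAST/EiJ (42.6% over all genes). Fgf7 was at 2.05 ± 0.22 and Fgfr3 at −0.24 ± 0.05 in the comparison with CAST/EiJ. Of 15 genes for the TATA-binding protein and its regulators, 0 were called against NZO/HlLtJ, with 17.7% called over all genes. Against CAST/EiJ 3 were higher and 4 lower, with 42.6% over all genes, and Taf2 was among the lower ones at −0.22 ± 0.04.

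Markers of some cell types moved in the same strain comparisons, where 17.7% of all genes were called against NZO/HlLtJ and 42.6% against CAST/EiJ. Oligodendrocyte markers were higher in C57BL/6J for 4 of 5 genes against either strain. Their sums were 3718 to 5270 CPM in C57BL/6J, against 2792 to 3645 CPM in NZO/HlLtJ and 1868 to 5387 CPM in CAST/EiJ. The 5387 CPM was that of CAST/EiJ control female 1, and the median of the 6 CAST/EiJ libraries was 2958 CPM. Choroid plexus markers were higher for 4 of 5 against CAST/EiJ, at 39.8 to 62.2 CPM in C57BL/6J, against 18.9 to 26.99 CPM in CAST/EiJ. Pituitary markers were lower for 5 of 6 against CAST/EiJ and higher for 1, at 2.18 to 10.1 CPM in C57BL/6J, against 19.7 to 2416 CPM in CAST/EiJ. The highest of these sums was that of CAST/EiJ control female 1, and the median of the 6 CAST/EiJ libraries was 43.02 CPM. Immediate early genes were higher for 6 of 10 against NZO/HlLtJ and 9 of 10 against CAST/EiJ. Neuron markers were higher for 1 of 6 against NZO/HlLtJ and for 0 against CAST/EiJ. Endothelium markers were higher for 0 and 1 of 5, in the same order. Astrocyte markers were lower for 2 of 5 against NZO/HlLtJ, and against CAST/EiJ 1 was higher and 1 lower. Hypothalamic peptide genes were higher for 1 and lower for 2 of 16 against NZO/HlLtJ. Against CAST/EiJ, 2 of them were higher and 7 lower. Without CAST/EiJ control female 1, Mme was at 0.50 ± 0.12 (edgeR adjusted p = 0.00126), and Pitrm1, Insr, App, Fgf7, Fgfr3 and Taf2 were also still called against CAST/EiJ. The part of these markers in the strain differences was not tested. GRCm38, a C57BL/6J genome, is the build named for all strains, and its part was likewise not tested.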

How the data were processed

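Poly(A) RNA of 36 hypothalamus libraries was sequenced in pairs of reads, per the labels' protocols. The authors deposited estimated counts per gene and log2 values from a variance-stabilizing transformation (VST); GRCm38 and DESeq2 are named in the submitters' processing notes, and a name for the aligner or counter was not given in the sources used here. Members and gene lists were chosen with earlier results of these data known. Estimated counts were rounded and filtered with filterByExpr, leaving 20053 of 24265 genes, and scaled by TMM. They were fitted in edgeR 4.0.16 (R 4.3.3) with 12 group means and 1 spread per gene shared by all groups. Its quasi-likelihood test was adjusted by Benjamini-Hochberg over all genes and called at 0.05. Contrasts with C57BL/6J were planned as tests but are given for the 3 members without p, since C57BL/6J levels chose them. Log2 CPM used a prior count of 2. Alternatives were median-ratio scaling, DESeq2 1.42.0, limma 3.58.1 on the deposited VST, other filters and prior counts, fits on the strains compared, Spearman's rho, a 3 SD step, and each library left out. Named genes were the members, their neighbours within 1 Mb, the 10 genes most and 5 least like Ide, and called genes of 5 lists. The fit was tested on simulated data. Totals were 23885206 to 47250454 counts per library.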

Additional observations from a re-analysis of the deposited data

Results flagged for a closer look

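Ide in C57BL/6J control male 2 was at 54.9 CPM, far from the other 5 control libraries at 108 CPM and above. This restates the pair of Ide levels by which the genes were chosen, so it is a description and not a test. The library lies with the HFHS females for Ide, and it is also among the 5 lowest for Btaf1 and the 5 highest for Zfp950.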

How the results depend on the processing

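No paired analysis was possible because the labels carry no replicate numbers shared between groups, and numbers here follow accession order. Ide kept 1 step in C57BL/6J under median-ratio scaling, a prior count of 0.5, a 3 SD step and the deposited VST, with a gap of 0.72 on the VST scale, and Btaf1 and Fgfbp3 kept 0. On VST values, which compress low genes by construction, Fgfbp3 had a C57BL/6J SD of 0.13, a C57BL/6J diet difference of −0.14, and differences of 0.18 from NZO/HlLtJ and 0.20 from CAST/EiJ on control diet. Of the 10 genes most like Ide, 2 were shared with Spearman's rho. Counts of genes called moved more, for causes that were not tested. For diet they were 3 in C57BL/6J, 153 in NZO/HlLtJ and 420 in CAST/EiJ by DESeq2, and 173 in NZO/HlLtJ and 6 in CAST/EiJ on the strains compared alone, with 13 in CAST/EiJ unfiltered. The edgeR counts were 0, 29 and 24. For sex they were 76 in C57BL/6J and 512 in CAST/EiJ by DESeq2, and 19 in C57BL/6J, 22 in NZO/HlLtJ and 10 in CAST/EiJ on the strains compared alone, against 39, 14 and 37. Leaving out 1 library gave 0 to 2 diet genes in C57BL/6J (2 without control male 2), 7 to 36 in NZO/HlLtJ and 7 to 2681 in CAST/EiJ (2681 without control female 2, 135 without control female 3), and 23 to 81 sex genes in C57BL/6J (81 without HFHS female 3) and 16 to 3088 in CAST/EiJ (3088 without control female 2). Btaf1 ran from 0.15 to 0.35 for NZO/HlLtJ minus CAST/EiJ on control diet and from −0.33 to −0.13 for sex in CAST/EiJ, each passing without CAST/EiJ control female 2. Fgfbp3, at 84 to 273 counts per C57BL/6J library, is the member most limited by depth.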
